A study of Mus musculus with 6 samples.

Results

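The Serpina3 genes encode serine protease inhibitors of the serpin superfamily, and 7 mouse members were described here in kidneys of mice with knockout of the tumor suppressor Vhl and of wild-type mice: Serpina3c, Serpina3f, Serpina3g, Serpina3i, Serpina3k, Serpina3m and Serpina3n. They were found by matching the Entrez ID of each row of the expression table to these symbols, and all 7 had a row among 25206. The family was selected on earlier results of the same arrays, the Vhl knockout against wild-type log2 fold changes, in which Serpina3n stood among the highest increases. The differences between genotypes are therefore given for the 7 genes as a description, without a test.

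Serpins inhibit proteases by offering an exposed reactive loop as bait, and cleavage of the loop traps the protease in an inactive complex. Mice carry an expanded cluster of Serpina3 genes where humans have a single counterpart, SERPINA3 or α1-antichymotrypsin, an acute phase protein of plasma. The copies differ mainly in the reactive loop and so in the proteases they bind. Serpina3n is a secreted inhibitor of granzyme B, cathepsin G and leukocyte elastase, Serpina3c and Serpina3k bind tissue kallikreins or trypsin-like proteases, and Serpina3g, also named Spi2A, acts inside leukocytes against lysosomal cathepsins.

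RNA of whole kidneys from male C57BL/6 mice aged 3 months was hybridized to Affymetrix Mouse Gene 2.0 ST arrays, 3 from Vhl knockout and 3 from wild-type mice. The knockout mice carried the floxed Vhl allele together with Hoxb7-Cre-GFP, a Cre recombinase whose promoter is active in the ureteric bud lineage, so that only part of the tubule cells lost Vhl. The wild-type mice carried the floxed allele with no Cre named for these arrays, although wild-type tubule cells cultured in the study came from mice with the Cre, and if the array mice lacked it, loss of Vhl cannot be told apart from the transgene. No source says outright that each array came from a separate mouse, and the p-values measure the spread between these samples.

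All values are log2 signals made by the authors with RMA, which corrects background, normalizes arrays against each other and summarizes the probes of a gene. Each row was tested for a difference between genotypes with limma, and a row passed at a Benjamini-Hochberg adjusted p of 0.05 over the whole table. A log2 fold change is the Vhl knockout mean minus the wild-type mean. The array medians differed by at most 0.0356. Vhl itself read 6.08, 6.18 and 6.10 on the knockout arrays and 6.11, 6.13 and 6.03 on the wild-type arrays, a log2 fold change of 0.03 (adjusted p = 0.860). No source used here says which exons this row reads, so it does not check the labels. None of the 12 kidney markers passed the test (1 higher and 0 lower at an unadjusted p under 0.05 in limma), and their mean signal was 10.2 to 10.3 on all 6 arrays. Of all 25206 rows, 2185 were higher and 2112 lower at an unadjusted p under 0.05 in limma.

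The sequences before the transcription start are shown first for the 2 genes whose promoters were most alike, Serpina3n and Serpina3c, and for Serpina3f, which along with Serpina3n had arrays that did not overlap between genotypes. Each line gives the 250 bases before the RefSeq start, 5′ to 3′ in the direction of transcription, on GRCm38.p6. Serpina3n lies at chr12:104406458-104406707 on the plus strand, Serpina3c at chr12:104153873-104154122 on the minus strand and Serpina3f at chr12:104214294-104214543 on the plus strand. Capitals mark matches to the motifs named in the next paragraph.
Serpina3n: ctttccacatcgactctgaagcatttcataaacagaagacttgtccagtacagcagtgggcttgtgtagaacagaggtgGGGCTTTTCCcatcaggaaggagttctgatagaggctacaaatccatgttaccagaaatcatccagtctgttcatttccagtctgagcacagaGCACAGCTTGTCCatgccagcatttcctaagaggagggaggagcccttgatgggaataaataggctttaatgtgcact
Serpina3c: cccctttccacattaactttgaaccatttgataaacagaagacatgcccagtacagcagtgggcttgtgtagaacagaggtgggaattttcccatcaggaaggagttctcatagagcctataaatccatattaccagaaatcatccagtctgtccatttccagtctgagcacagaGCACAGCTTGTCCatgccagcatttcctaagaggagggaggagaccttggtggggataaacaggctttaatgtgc
Serpina3f: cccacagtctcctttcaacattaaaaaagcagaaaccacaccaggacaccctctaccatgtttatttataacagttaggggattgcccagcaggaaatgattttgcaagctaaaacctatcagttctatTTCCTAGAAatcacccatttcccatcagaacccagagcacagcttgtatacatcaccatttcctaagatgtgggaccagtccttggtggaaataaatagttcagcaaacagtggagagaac

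RefSeq promoter windows were at hand for 5 of the 7 genes, with a second start for Serpina3f. In local alignments Serpina3n and Serpina3c were identical at 229 of 247 aligned bases (92.7%) with no gap, the most alike pair, although the genes lie apart in the cluster on opposite strands. Serpina3n shared 65.3% of 239 aligned columns with Serpina3f, 69.7% of 231 with Serpina3i and 64.2% of 162 with Serpina3g. Motifs were searched on both strands. The glucocorticoid receptor pattern, GNACA and TGTNC set 3 bases apart, was met in 0.387% of all 32851 windows of this length and in those of Serpina3n and Serpina3c, as GCACAGCTTGTCC at 78 to 66 and at 75 to 63 bases before the start. The NF-κB pattern, GGG and TTTCC set 2 bases apart, was met in 1.41% of all windows and in those of Serpina3n, Serpina3g and Serpina3i, with GGGCTTTTCC in Serpina3n at 171 to 162 bases before the start. The STAT pattern TTCNNNGAA, found in 7.02% of all windows, was met in those of Serpina3f, Serpina3g and Serpina3i, and read TTCCTAGAA in Serpina3f. The hypoxia pattern ACGTG, found in 16.6% of all windows, was met in none of the windows of these genes. TATAAA, met in 12.4% of all windows, was in those of Serpina3c and Serpina3f and is not marked in capitals. These are matches of letters in a window and not measured binding sites, and none of the motif matches overlapped another.

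Serpina3n, the inhibitor of granzyme B and cathepsin G, showed the widest separation between genotypes in the family. Its log2 signal was 6.20, 6.83 and 6.89 on the Vhl knockout arrays, against 3.47, 4.14 and 3.99 on the wild-type arrays. Every knockout array lay above every wild-type array, with a gap of 2.06 between the lowest knockout and the highest wild-type value. The means were 6.64 ± 0.38 in knockout and 3.87 ± 0.35 in wild-type kidneys (SD, n = 3 arrays each). The log2 fold change was 2.78 (standard error 0.231), or 6.85-fold. On the 3 knockout arrays the gene was above the array median, and on the wild-type arrays it was below it. In a whole-kidney extract, more cells that make an mRNA and more mRNA per cell cannot be told apart.

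Serpina3c, a kallikrein-binding serpin, had the next highest log2 fold change. It read 4.34, 3.58 and 3.87 on the Vhl knockout arrays and 3.61, 2.40 and 2.62 on the wild-type arrays. The groups touched, since wild-type replicate 1 lay 0.035 above knockout replicate 2. The log2 fold change was 1.05 (standard error 0.329), or 2.08-fold. Replicate 1 was the highest for Serpina3c and the lowest for Serpina3n in both genotypes.

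Serpina3f separated the genotypes at a low signal. It read 3.29, 3.44 and 3.44 on the Vhl knockout arrays, against 2.98, 2.81 and 2.98 on the wild-type arrays. The groups did not overlap, with a gap of 0.31, and the log2 fold change was 0.47 (standard error 0.086), or 1.38-fold. All 6 values lay under the lower quartile of their array. Serpina3g, the leukocyte inhibitor of lysosomal cathepsins, read 4.25, 3.89 and 3.86 in knockout and 3.61, 2.72 and 4.10 in wild-type kidneys. Here wild-type replicate 3 lay above knockout replicates 2 and 3, and the log2 fold change of 0.52 had a standard error of 0.319.

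The remaining 3 genes had log2 fold changes between -0.14 and 0.07. Serpina3k, the plasma inhibitor once named contrapsin, read 3.10, 2.81 and 2.94 on the Vhl knockout arrays and 2.80, 2.86 and 3.00 on the wild-type arrays, a log2 fold change of 0.07 (standard error 0.0998). Serpina3m read 3.20, 3.49 and 3.37 in knockout and 3.34, 3.33 and 3.65 in wild-type kidneys, a log2 fold change of -0.09 (standard error 0.119). Serpina3i read 1.50, 2.23 and 1.44 in knockout and 1.58, 1.82 and 2.18 in wild-type kidneys, a log2 fold change of -0.14 (standard error 0.238). In each of these genes the groups overlapped. Serpina3k and Serpina3i were under the lower quartile on all 6 arrays and Serpina3m on 5, so a change at such dim rows could have gone unseen.

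**Figure D1:**
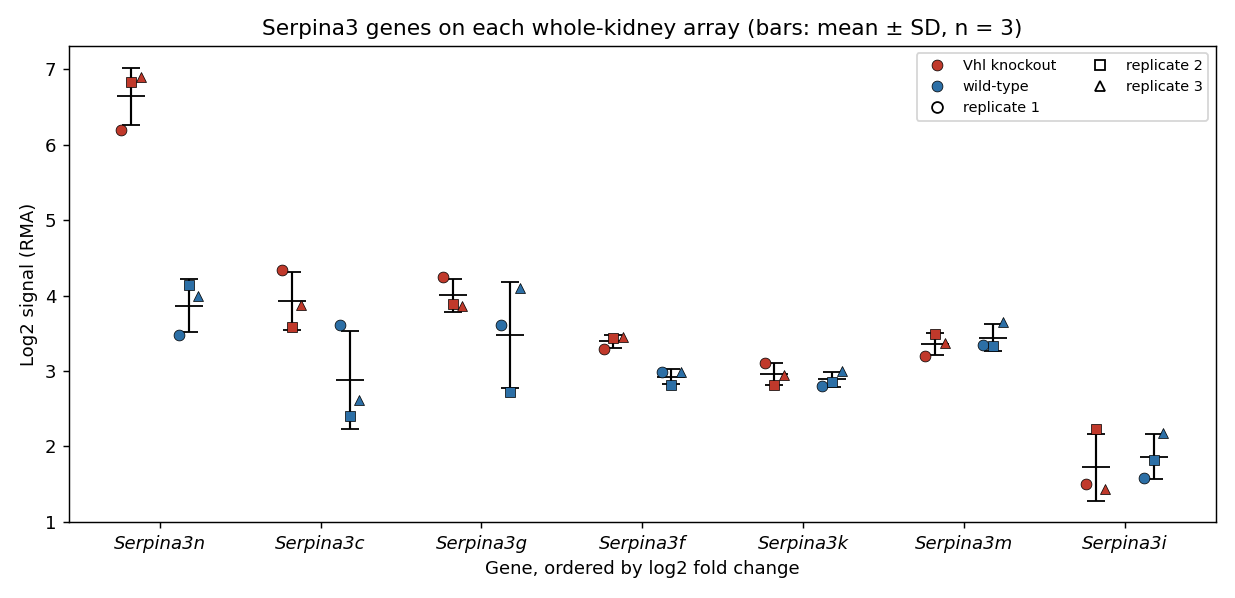
Log2 signal (RMA) of the 7 Serpina3 genes on each array, ordered by log2 fold change, with Vhl knockout in red and wild-type in blue. Marker shapes stand for replicates 1, 2 and 3 and bars for mean ± SD (n = 3); the groups are apart for Serpina3n, with a gap of 2.06, and for Serpina3f, with a gap of 0.31, and overlap for the other 5.

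Counted over the family, 2 of 7 genes, Serpina3n and Serpina3f, were past the threshold of the limma comparison, both higher in Vhl knockout kidneys. Of all 25206 rows, 2.77% passed, 2.24% higher and 0.524% lower. Every knockout array was above every wild-type array for these same 2 genes, as for 11.2% of all rows. The median log2 fold change was 0.47 over the 7 genes and -0.03 over all rows. Nothing is read from these shares, since the family was proposed from this contrast. With 1 array left out in turn the log2 fold change was 2.58 to 3.00 for Serpina3n and 0.41 to 0.52 for Serpina3f. The genes are close relatives, and whether RNA of 1 copy bound the probes of another was not tested, since no probe sequences were used here.

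The Serpina3 genes sit in a serpin cluster on chromosome 12, so the neighbors of Serpina3n could be set beside it. Between Serpina10 and Gsc the RefSeq table lists 29 protein-coding genes and Serpina pseudogenes, of which 25 had a row. Any other noncoding genes and pseudogenes there were left out. None of the 18 genes outside the 7 passed the test in limma (3 at an unadjusted p under 0.05, lowest adjusted p = 0.228). Gsc, the homeobox gene that follows Serpina3n in the cluster, differed by -0.00353 on the log2 scale (standard error 0.087, adjusted p = 0.990), and Serpina3m on its other side had -0.09. Among further Serpina3 copies, Serpina3b had 0.50 (adjusted p = 0.228), Serpina3j 0.30 (adjusted p = 0.464), Serpina3h -0.06 (adjusted p = 0.820) and Serpina3a -0.32 (adjusted p = 0.289). Serpina1b had 0.48 (adjusted p = 0.324), and the 7 genes Serpina16, Serpina1e, Serpina11, Serpina9, Serpina12, Serpina4-ps1 and Serpina5 lay between -0.27 for Serpina11 and 0.32 for Serpina1e. The other 5, Serpina1d, Serpina1c, Serpina1f, Serpina10 and Serpina6, varied more between arrays and are described in the next paragraph. The high value of Serpina3n was thus not shared by the rows on either side of it among those counted here.

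**Figure D2:**
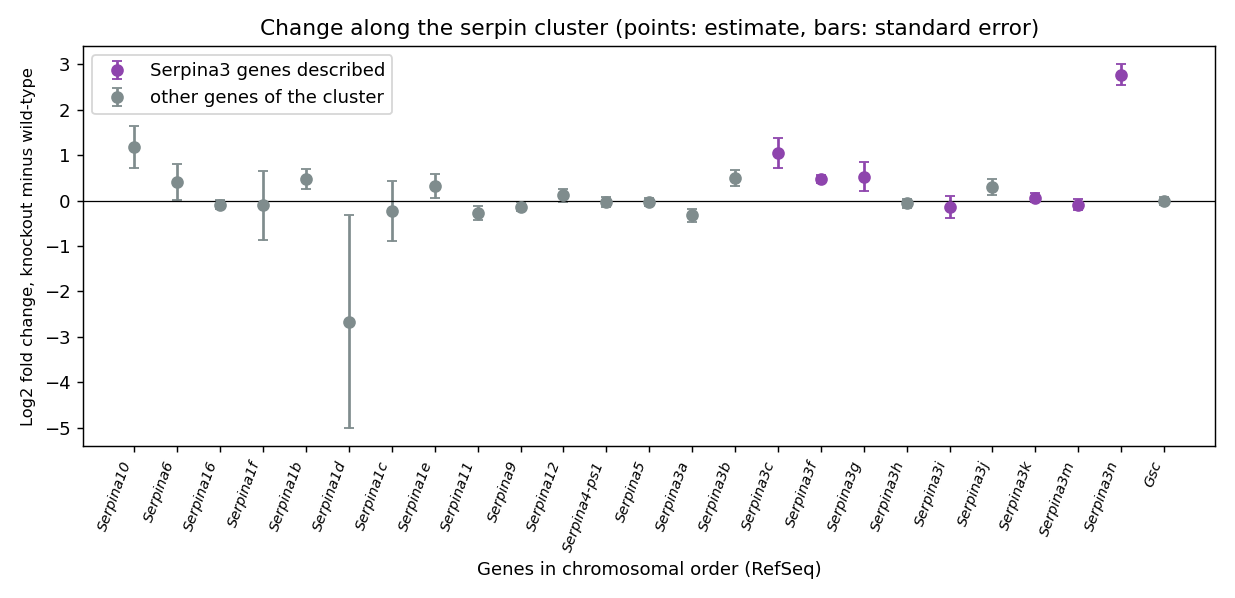
Log2 fold change (Vhl knockout minus wild-type, y axis) of the 25 rows of protein-coding and Serpina genes from Serpina10 to Gsc in chromosomal order (x axis), with standard errors as bars. The 7 Serpina3 genes are in purple and the other rows in grey; Serpina3n at 2.78 stands next to Serpina3m at -0.09 and Gsc at -0.00353.

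At the far end of the cluster lie the Serpina1 genes, the mouse α1-antitrypsin genes and their relatives. Among them Serpina1d, Serpina1c and Serpina1f varied between arrays without regard to genotype. Serpina1d read 8.39, 1.86 and 2.24 on the Vhl knockout arrays and 9.24, 2.12 and 9.13 on the wild-type arrays, a log2 fold change of -2.66 with a standard error of 2.35 (adjusted p = 0.620). It was thus high on knockout replicate 1 and wild-type replicates 1 and 3 and near the lower end of the scale on the others. Serpina1c was high on the same 3 arrays, with 4.68, 2.73 and 2.91 in knockout and 4.24, 2.41 and 4.35 in wild-type kidneys (log2 fold change -0.23, adjusted p = 0.900). So was Serpina1f, at 8.91, 6.31 and 6.94 in knockout and 8.35, 6.18 and 7.95 in wild-type kidneys (log2 fold change -0.10, adjusted p = 0.961). Serpina10, which inhibits coagulation factors, went the other way, at 5.89, 7.65 and 7.27 in knockout and 5.29, 6.33 and 5.67 in wild-type kidneys (log2 fold change 1.18, adjusted p = 0.256), and so did Serpina6, corticosteroid-binding globulin, at 3.27, 4.79 and 4.78 in knockout and 3.78, 4.13 and 3.70 in wild-type kidneys (log2 fold change 0.41, adjusted p = 0.650). In each genotype Serpina3n was also lower on the arrays with high Serpina1d, by less than it differed between genotypes, and the cause was not tested. The labels give C57BL/6 for all 6 arrays, and whether the mice carried the same alleles of this cluster was not tested. Serpina1d was added to the fit as a covariate once these values had been seen, and Serpina3n then had a log2 fold change of 2.57, Serpina3c had 1.32 and Serpina3f 0.48.

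**Figure D3:**
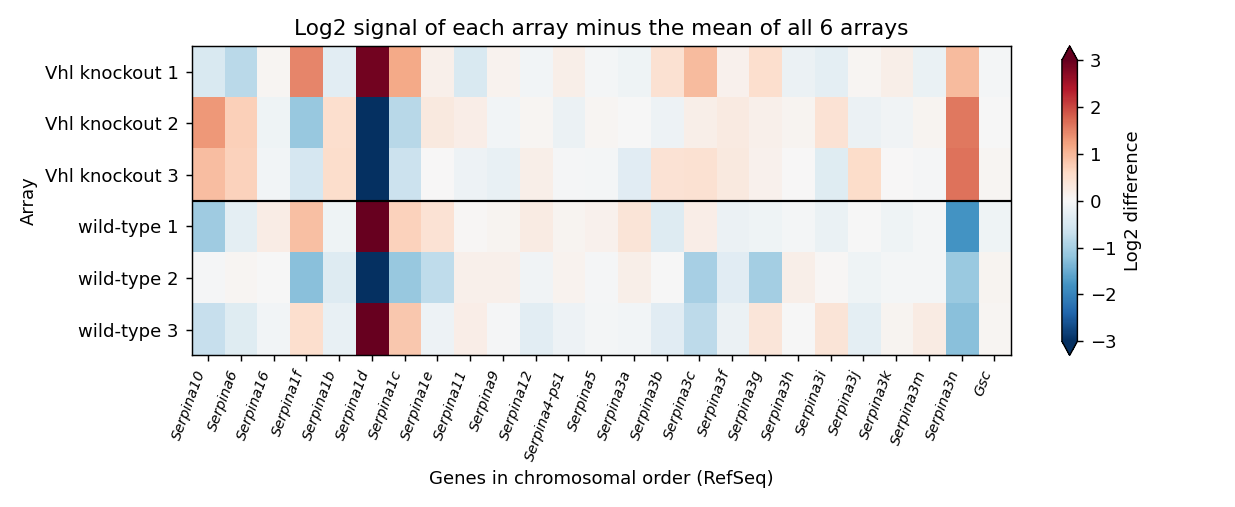
Log2 signal of each array minus the mean of all 6 arrays (color scale, saturated beyond 3) for the 25 rows of the cluster in chromosomal order, with the Vhl knockout arrays above the line and the wild-type arrays below. Serpina3n is split by genotype, whereas Serpina1d is high on knockout replicate 1 and wild-type replicates 1 and 3 alike.

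Adipocytes are among the cells that make Serpina3 serpins, and adipocyte genes were high on some of the arrays. The mean signal of 10 adipocyte markers was 7.14, 5.32 and 6.52 on the Vhl knockout arrays, against 5.52, 5.42 and 5.11 on the wild-type arrays. None of the 10 passed the test in limma (3 higher and 1 lower at an unadjusted p under 0.05, the lower one being Pck1, which proximal tubules also make). Serpina3c followed the same order as these markers in knockout kidneys, with replicate 1 highest and replicate 2 lowest. Serpina3n did not, since its lowest knockout value fell on replicate 1, where the adipocyte signal was highest. Among wild-type arrays Serpina3c and the adipocyte mean were both highest on replicate 1. There Serpina3c was lowest on replicate 2 and the adipocyte mean on replicate 3. With the adipocyte mean as a covariate Serpina3n had a log2 fold change of 3.09, Serpina3c had 0.60 and Serpina3f 0.54. With knockout replicates 1 and 3 both left out, which leaves 1 knockout array, Serpina3n had a log2 fold change of 2.96. Whether adipocyte RNA accounts for the Serpina3c signal was not tested beyond these values.

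**Figure D4:**
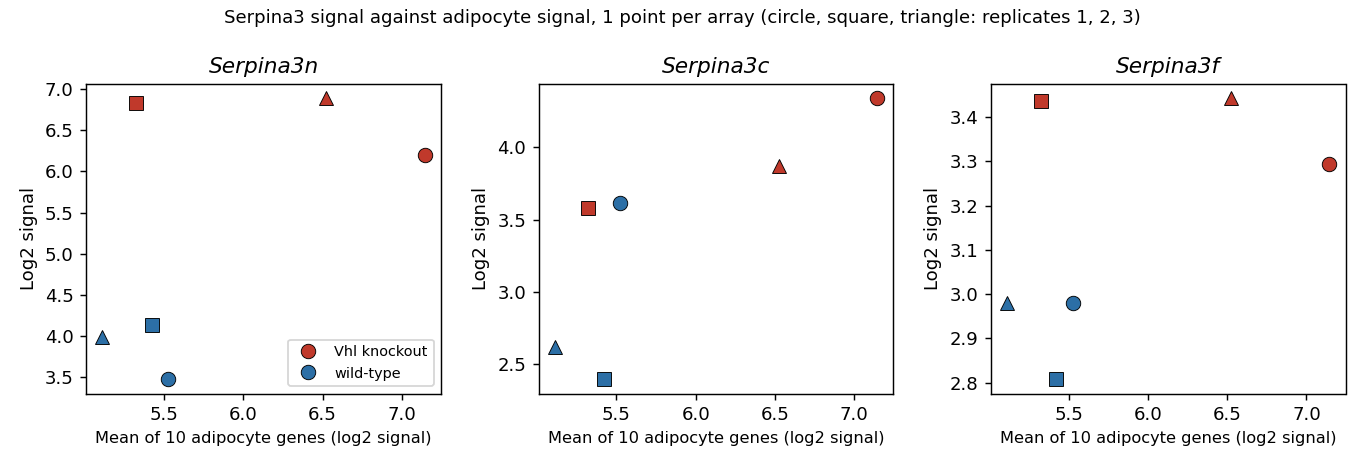
Log2 signal of Serpina3n, Serpina3c and Serpina3f (y axes) against the mean log2 signal of 10 adipocyte genes (x axes), 1 point per array, with Vhl knockout in red and wild-type in blue. Knockout replicate 2, at an adipocyte mean of 5.32, reads 6.83 for Serpina3n, while for Serpina3c the knockout arrays go up with the adipocyte mean to 4.34 on replicate 1.

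Markers of the other cell types that make these serpins were set beside the family. Among 17 macrophage markers 14 passed, all of them higher, and the mean signal of the 17 was 6.58 to 6.64 on the Vhl knockout arrays, against 5.49 to 5.68 on the wild-type arrays. Of 10 hepatocyte markers none passed (0 higher and 1 lower at an unadjusted p under 0.05), with mean signals of 4.94 to 5.28 in knockout and 5.22 to 5.30 in wild-type kidneys. None of 11 neutrophil markers passed (0 higher and 1 lower at an unadjusted p under 0.05), with 3.14 to 3.24 in knockout and 3.27 to 3.42 in wild-type kidneys. Of these markers 7 were under the lower quartile on every array, where a change could have gone unseen. Of 11 T and NK cell markers none passed (1 higher and 0 lower at an unadjusted p under 0.05), with 4.43 to 4.54 in knockout and 4.32 to 4.46 in wild-type kidneys. The 7 markers of exocrine pancreas read 3.85 to 3.97 in knockout and 3.92 to 4.05 in wild-type kidneys and none passed, also at an unadjusted p under 0.05. These tests are from limma. The macrophage markers were thus higher in knockout kidneys, as Serpina3n was. Among knockout arrays their mean was highest on replicate 1, where Serpina3n was lowest. Among wild-type arrays both were lowest on replicate 1 and highest on replicate 2. The part of macrophages in the Serpina3n signal was not tested.

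The rows most like Serpina3n over the 6 arrays were sought by Pearson r, which here rests mostly on the step between genotypes. Over so few arrays a high r is readily met in a large table. Serpina3i and Serpina3k, whose groups overlapped, had closest rows with r = 0.996 and 0.995. The closest rows of Serpina3n are therefore listed as a description. These rows were Il27ra, a cytokine receptor chain, with r = 0.998, Frem1, a basement membrane protein, with 0.998, Srpx2, a secreted sushi-repeat protein, with 0.997, Anln, an actin-binding protein of cell division, with 0.995, and Nfkbie, an inhibitor of NF-κB, with 0.995. Their own log2 fold changes were far lower, from 0.30 for Il27ra (adjusted p = 0.0778) and 0.56 for Nfkbie (adjusted p = 0.0196) to 0.90 for Anln (adjusted p = 0.00585). For Serpina3f the closest rows were Rnf19a with r = 0.998, the translation factor Eif5b with 0.995 and the Toll-like receptor Tlr1 with 0.993. Of these Tlr1 rose by 0.63 (adjusted p = 0.0110), while Rnf19a and Eif5b had 0.15 and 0.10 and did not pass. After removal of the genotype means other rows came first for Serpina3n, led by Maml1 with r = 0.998 and a log2 fold change of -0.07, so that no row was like it on both measures among the 5 closest.

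Serine proteases, the class for which serpins are named, were set beside the family. Of 24 serine proteases of granules, kallikreins and related enzymes 1 was higher (4.17%, against 2.77% of all rows), 0 were lower and 23 stayed short of the threshold, with a median log2 fold change of -0.0042 against -0.03 for all rows. The gene was Plat, tissue plasminogen activator, which rose to 8.17, 7.97 and 7.90 in Vhl knockout kidneys, against 7.54, 7.50 and 7.52 in wild-type kidneys (log2 fold change 0.49 ± 0.0893 SE, adjusted p = 0.0364, and 0.0588 to 0.116 without any 1 of the 6 arrays). Prss23 had 0.34 (adjusted p = 0.146). Leukocyte elastase Elane, cathepsin G Ctsg, Prtn3, the granzymes Gzmb and Gzma and the mast cell chymase Cma1, named for their role with their values known, ranged in log2 fold change from -0.20 for Ctsg to 0.25 for Prtn3, and none passed, nor did any at an unadjusted p under 0.05. Ctsg, Gzmb, Gzma and Cma1 were under the lower quartile on every array, so a change at such dim rows could have gone unseen. Tissue kallikrein Klk1 read 12.1, 12.0 and 12.1 in knockout and 12.2, 12.1 and 12.1 in wild-type kidneys.

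Cathepsins of the lysosome, some of which Serpina3g inhibits, included higher members. Of 12 cathepsins 3 passed, each higher, and 9 did not, with a median log2 fold change of 0.21. Ctss rose to 8.61, 8.46 and 8.38 in Vhl knockout kidneys, against 6.72, 7.11 and 7.08 in wild-type kidneys (log2 fold change 1.51 ± 0.124 SE, adjusted p = 0.00262). Ctsc, which activates granule serine proteases, rose by 1.11 (adjusted p = 0.00516), and the collagen-degrading Ctsk by 0.71 (adjusted p = 0.00672). All 3 passed with any array left out. Ctsb, the cathepsin best known as a target of Serpina3g and named for that role, had 0.25 (adjusted p = 0.153). With the adipocyte mean as a covariate Ctsc had an adjusted p of 0.0568 and Ctsk 0.0738, at log2 fold changes of 0.96 and 0.70. Macrophages express these enzymes, and the share of the macrophage signal in them was not tested.

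Other serpins moved in part. None of the 16 other clade A serpins with a row passed the test in limma (2 higher and 1 lower at an unadjusted p under 0.05). Of 27 serpins of clades B to I 5 passed, each higher, and 22 did not, with a median log2 fold change of 0.10. Serping1, the C1 inhibitor of complement, rose to 9.51, 9.37 and 9.37 in Vhl knockout kidneys, against 7.99, 8.12 and 8.03 in wild-type kidneys (log2 fold change 1.37 ± 0.0791 SE, adjusted p = 0.00120). Serpinb5, known as maspin, rose by 0.996 (adjusted p = 0.0307, and 0.0752 to 0.102 without any 1 array other than wild-type replicate 1). Serpina3n's log2 fold change was the highest among the 50 serpins of the family and these lists. Nothing is read from this rank, since the family was selected on the same contrast.

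The acute phase list, to which the human counterpart of these genes belongs, had 8 of 23 members past the threshold, each higher, with a median log2 fold change of 0.82. Lcn2, the siderophore-binding lipocalin, read 9.78, 9.63 and 9.20 in Vhl knockout and 5.81, 5.70 and 5.73 in wild-type kidneys (log2 fold change 3.79 ± 0.145 SE, adjusted p = 0.000234). The fibrinogen chain Fgg rose by 2.82 ± 0.165 SE (adjusted p = 0.00120) and Fgb by 2.70 (adjusted p = 0.0253, and 0.0631 to 0.0916 without knockout replicate 2 or any 1 wild-type array). At an unadjusted p under 0.05 in limma 11 members were higher and 0 lower, and 5 of the 23 were under the lower quartile on every array. The serum amyloid genes Saa2 and Saa1, chosen with their values known, did not pass in limma. Saa2 had -0.28 (adjusted p = 0.302), the lowest value of the list, and Saa1 0.02 (adjusted p = 0.922). Saa3, also on the list, is not described here.

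Cytokine signals that induce acute phase genes in liver run through the IL-6 family of ligands, their receptors and the transcription factor STAT3. Of 23 such genes 4 passed, each higher, and 19 did not, with a median log2 fold change of 0.13. The receptors were Osmr, which binds oncostatin M and rose to 8.11, 8.05 and 8.10 in Vhl knockout kidneys, against 6.67, 6.54 and 6.61 in wild-type kidneys (log2 fold change 1.48 ± 0.0722 SE, adjusted p = 0.000667), and Il6ra, which rose by 0.68 (adjusted p = 0.0185, and 0.0518 to 0.0750 without knockout replicate 3 or any 1 wild-type array). Downstream, Stat3 rose by 0.56 (adjusted p = 0.0295, and 0.0544 to 0.113 without any 1 of the 6 arrays) and its feedback inhibitor Socs3 by 0.61 (adjusted p = 0.00939). With the adipocyte mean as a covariate Osmr passed and the other 3 had adjusted p-values of 0.0918 for Socs3 to 0.230 for Stat3. The log2 fold changes were then 0.61 for Socs3, 0.52 for Il6ra and 0.45 for Stat3.

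Interferon gamma and glucocorticoid genes were included because Serpina3g responds to interferon in leukocytes and glucocorticoids induce serpins of this family in rat liver. Of 23 interferon gamma targets 13 were higher and 0 lower at an unadjusted p under 0.05 in limma. Of all 25206 rows, 2185 were higher and 2112 lower at that cut. The median log2 fold change of the targets was 0.33, and 2 of them passed, both higher, while 21 did not. The 2 were the immunoproteasome subunit Psmb8 with 0.58 (adjusted p = 0.0411, and 0.0828 to 0.128 without any 1 array other than wild-type replicate 2) and the transcription factor Irf8 with 0.57 (adjusted p = 0.0141, and 0.0515 to 0.0625 without knockout replicate 2, wild-type replicate 1 or wild-type replicate 3). The glucocorticoid list of 13 genes had 1 higher and 1 lower gene, with a median of 0.10. The kinase Sgk1 rose by 0.69 (adjusted p = 0.0465, and 0.0922 to 0.140 without any 1 array other than knockout replicate 1), and Hsd11b2, which inactivates glucocorticoids in the collecting duct, fell by 0.40 (adjusted p = 0.0359, and 0.0747 to 0.119 without any 1 of the 6 arrays). With the adipocyte mean as a covariate these 4 no longer passed, at adjusted p-values of 0.246 for Psmb8, 0.107 for Irf8, 0.101 for Sgk1 and 0.215 for Hsd11b2, nor did Plat at 0.257, Serpinb5 at 0.239 and Fgb at 0.210.

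**Figure D5:**
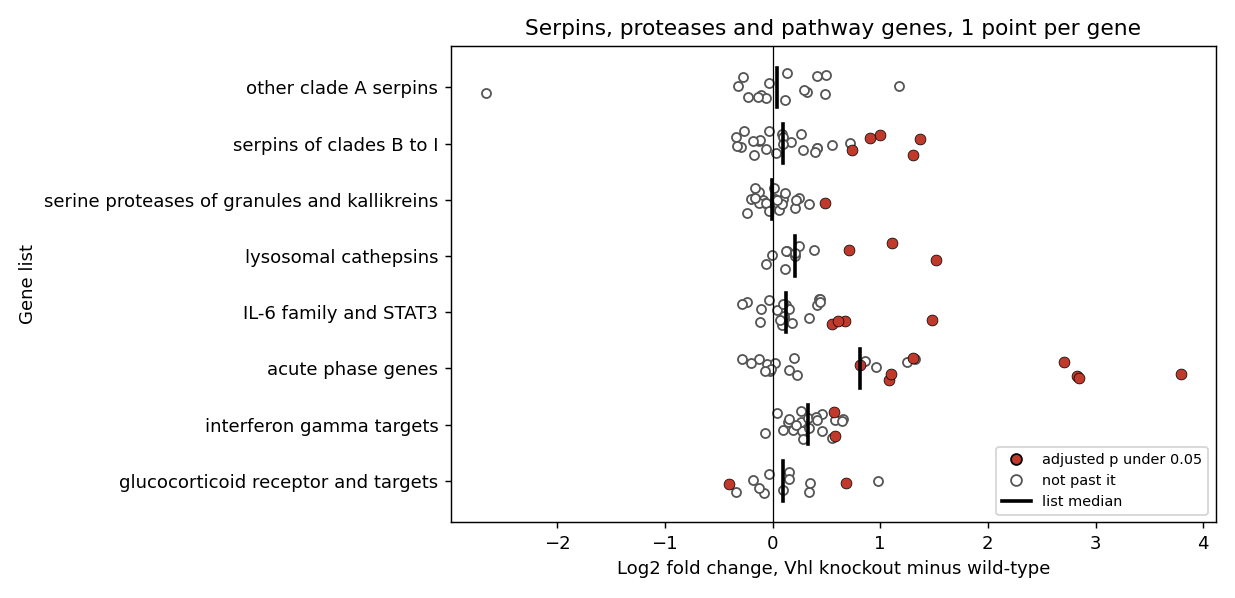
Log2 fold change (Vhl knockout minus wild-type, x axis) of every measured gene in 8 lists, 1 point per gene, with filled points past an adjusted p of 0.05 in limma and black lines at list medians. The acute phase list has the highest median, 0.82, and the serine proteases have a median of -0.0042.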

How the data were processed

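Arrays from 3 Vhl knockout and 3 wild-type kidneys were grouped by their titles. The deposited log2 signals came from RMA, run by the authors with software, version and annotation build that no source used here names, and stood in 2 tables with equal values in all 25206 rows. Their second table also holds a moderated score and its p-value and q-value for the same comparison, which the authors deposited and which were not used. The number of unused columns of per-sample values was 0. Row IDs are Entrez IDs. They were named through the RefSeq gene table of GRCm38.p6, which matched 23740 rows, while the platform annotation named 23185. It named 3 of the 7 Serpina3 genes, and the other 4 were named through RefSeq alone.

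A linear model with genotype alone was fitted to every row by lmFit and eBayes (R 4.3.3, limma 3.58.1, prior degrees of freedom 3.27). On simulated arrays of Vhl knockout minus wild-type it recovered 21 of 50 rows planted at 0.5, 40 of 50 at 1 and 49 of 50 at 2, and called 5 of 25006 unchanged rows. The number of arrays limits the precision. Promoters were aligned locally with Biopython 1.88. The members and lists were chosen with earlier results of these data known. Named from each list were up to 4 genes past the threshold with the largest change, or, if fewer than 2 passed, the 2 that changed most, leaving out, apart from Serpina3 genes, those the platform annotation does not name. From the likeness search, the 5 rows closest to Serpina3n and the 3 closest to Serpina3f were named. The replicate numbers of the labels were not taken to pair the arrays. Alternatives were quantile normalization, a filter on dim rows, trend and robust eBayes, weighted arrays, a block for replicate number, an adipocyte covariate and arrays left out, and Serpina1d as a covariate was added after seeing the data. Protein sequences were not used here.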

Additional observations from a re-analysis of the deposited data

How the results depend on the processing

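Against 697 rows past the threshold, 1101 passed over the 12778 rows whose signal exceeded the median of 3 or more arrays, 1094 with trend and robust eBayes, 270 with the replicate number as a block, 112 with the adipocyte covariate, 8 without Vhl knockout replicates 1 and 3 together and 245 to 409 with 1 array left out. Of the Serpina3 genes, 2 passed; only Serpina3n did with the filter on dim rows, which removes the other 6 from the table, with trend and robust eBayes, with the adipocyte or the Serpina1d covariate and with any 1 array left out (1 gene each), and 0 did without both knockout replicates. That last setting leaves 1 knockout array. With the replicate block Serpina3c and Serpina3n passed and Serpina3f did not. Nothing is read from which Serpina3 genes passed, since the family was selected on the same contrast. Same-numbered arrays had correlations of 0.036, 0.073 and -0.10 of their deviations from genotype means, so the numbers are not taken to pair them.

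With the block the counts were 0 for serine proteases, 2 for the IL-6 family and STAT3, 5 for acute phase genes, 0 for interferon gamma targets and 0 for glucocorticoid genes. With the adipocyte covariate they were 2 for serpins of clades B to I, 0 for serine proteases, 1 for cathepsins, 1 for the IL-6 family and STAT3, 5 for acute phase genes, 0 for interferon gamma targets and 0 for glucocorticoid genes. Without both knockout replicates 3 acute phase genes passed and 0 genes of each other list. Quantile normalization gave 1 interferon gamma target and 1 glucocorticoid gene, trend and robust eBayes 5 cathepsins and 4 interferon gamma targets, and the filter 6 interferon gamma targets. With 1 array left out the counts were 0 to 2 for other clade A serpins (2 without knockout replicate 1), 3 to 4 for serpins of clades B to I, 0 for serine proteases, 3 for cathepsins, 2 to 3 for the IL-6 family and STAT3, 4 to 8 for acute phase genes, 0 to 3 for interferon gamma targets and 0 to 1 for glucocorticoid genes. The cause of these shifts was not tested. Serpina3n had log2 fold changes of 2.57 to 3.09 over all settings. Serpina3k, Serpina3m and Serpina3i changed sign in some.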
